A study of Mus musculus with 3 samples.

Results

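The Toll-like receptor genes Tlr1, Tlr2, Tlr3, Tlr4, Tlr6, Tlr7, Tlr8, Tlr9 and Tlr13 and the co-receptor gene Cd14 were followed across the immune cells of mouse melanoma grafts. They were chosen by symbol, with no threshold on a measured value, and are 10 of the 55401 genes listed in the count tables. The grafts came from YUMM1.7, a mouse melanoma line, of which 500000 cells were injected under the skin of mice aged 4, 12 or 20 months. At 18 days each tumour was dissociated using DNase I with collagenase D, and living cells carrying CD45, a surface protein of leukocytes, were sorted and profiled with a PIP-seq kit that reads the 3′ end of each RNA. Age is the only difference between the 3 groups that the labels name. Every mouse carried the same graft, and no other treatment is named in the labels. The strain and sex of the mice are not given in the sources used here. Each age had 7 mice and gave 1 library, and whether the mice of an age were pooled is not stated. No difference between ages therefore has a replicate check, and no test between ages was possible. A difference between ages cannot be told apart from a difference between libraries in handling, sorting or capture.

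Toll-like receptors are pattern-recognition proteins that bind molecules of microbes or of damaged cells and start inflammatory and interferon gene programmes through the adaptors MyD88 and TRIF. Those at the cell surface recognise lipids and lipoproteins, and CD14 hands lipopolysaccharide and other ligands to them. Those in endosomes recognise nucleic acids. In tumours they are studied mainly in macrophages, monocytes and dendritic cells, which differ in the receptors they carry.

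At 4, 12 and 20 months the count tables list 14393, 14653 and 14684 cells. Their totals are 110371225, 127850782 and 119873564 counts, and a median cell has 6789, 7411 and 6936. After filtering, 13523, 13772 and 13802 cells were kept, and 2 to 4 cell barcodes were shared between any pair of libraries. Cells were grouped again from the counts and given names ending in "-like" from marker genes, so class borders may differ from those of the study. Levels are given in CPM, the counts of a gene scaled to 1000000 counts of the class, with 95% Poisson intervals in parentheses. All intervals and detection limits in the text cover counting error only. Ptprc, the gene of CD45, stood between 407 and 681 CPM in the monocyte/macrophage-like, dendritic cell-like, T-like and NK-like classes of every library. Pmel, Mlana, Dct and Tyrp1 of pigment cells were at or below 1.5 CPM there, against the label that calls the cell type melanoma. Xist, made from the inactive X chromosome, was at 0.564, 0.325 and 0.242 CPM in monocyte/macrophage-like cells and the Y-linked Ddx3y at 134, 126 and 133 CPM. In T-like and NK-like cells Xist was at or below 0.474 CPM and Ddx3y at or above 142.9 CPM. The counts were thus those of male cells at each age, which bears on Tlr7, Tlr8 and Tlr13 because these lie on the X chromosome.

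In GENCODE M21 on build GRCm38, Tlr1 (ENSMUSG00000044827.10) spans chr5:64924679-64933563 on the minus strand and Tlr6 (ENSMUSG00000051498.6) spans chr5:64952031-64960097 on the same strand. The count tables list Tlr6 as ENSMUSG00000051498.7, so the Tlr6 model that was counted may differ from the one located here. They are neighbouring paralogs, and 15.4% of the 50-base words in Tlr1 transcripts and 12.3% of those in Tlr6 transcripts also occur in another gene. The longest identical run between them is 229 bases of coding sequence in the last exon of both, at chr5:64925537-64925765 in Tlr1 and chr5:64953828-64954056 in Tlr6. It is shown because reads from it cannot be assigned to 1 gene, all in lower case because no base differs.

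Tlr1 and Tlr6: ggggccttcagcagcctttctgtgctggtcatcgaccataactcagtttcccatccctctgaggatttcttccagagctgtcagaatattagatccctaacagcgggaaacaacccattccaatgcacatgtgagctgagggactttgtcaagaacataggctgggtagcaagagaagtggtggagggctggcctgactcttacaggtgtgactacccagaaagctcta

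The run ends 858 bases from the 3′ end of the Tlr1 transcript and 1797 bases from that of Tlr6, and the shared word nearest to the 3′ end lies 469 and 1408 bases away. How the authors' counting treated such reads is not given in the sources used here, and values of both genes are uncertain to that extent. The other members are Tlr2 (ENSMUSG00000027995.10, chr3:83836272-83841767, minus strand), Tlr3 (ENSMUSG00000031639.12, chr8:45395665-45411080, minus), Tlr4 (ENSMUSG00000039005.13, chr4:66827584-66930284, plus) and Tlr9 (ENSMUSG00000045322.10, chr9:106222598-106226883, plus). On the X chromosome lie Tlr7 (ENSMUSG00000044583.13, chrX:167304929-167330558, minus), Tlr8 (ENSMUSG00000040522.5, chrX:167242696-167264329, minus) and Tlr13 (ENSMUSG00000033777.4, chrX:106143204-106160493, plus). Cd14 (ENSMUSG00000051439.7) spans chr18:36725067-36726798 on the minus strand. The antisense gene Gm45542 overlaps 698 bases of Tlr3 without reaching its 3′ end, and whether the counting used strand is not given in the sources used here.

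Monocyte/macrophage-like cells held most counts of each member, surface or endosomal, from 50.8% for Tlr9 at 12 months to 90.0% for Cd14 at 4 months. They numbered 5216, 4172 and 5079 cells at 4, 12 and 20 months, with median depths of 7669, 8674 and 7936 counts, and T-like cells, the main contrast below, numbered 4949, 6528 and 6093. Cd14, which encodes the lipopolysaccharide co-receptor, stood at 313 CPM (307 to 318), 400 CPM (394 to 406) and 357 CPM (352 to 362) in monocyte/macrophage-like cells. These cells made up 38.6%, 30.3% and 36.8% of the kept cells and carried 90.0%, 85.8% and 89.6% of all Cd14 counts. The 12-month library was the highest and the 4-month library the lowest, and the 3 intervals did not overlap. Against 4 months the Cd14 level was 1.28-fold at 12 months and 1.14-fold at 20 months.

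**Figure D1:**
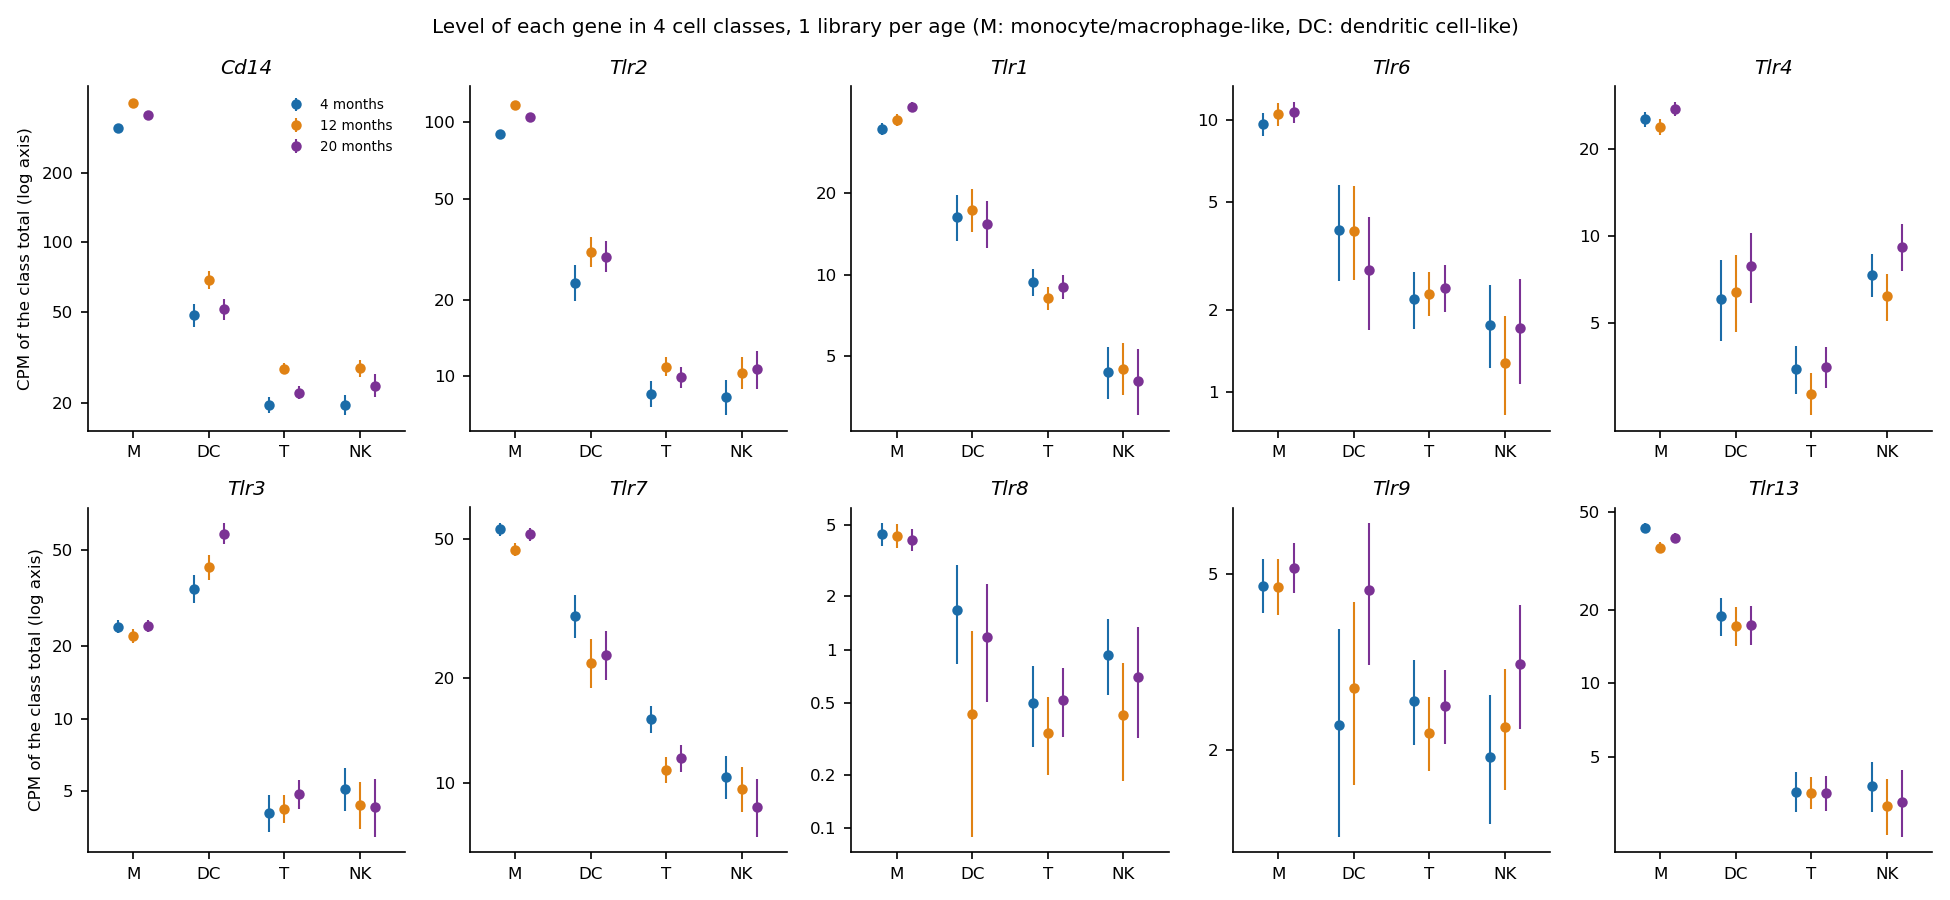
Level of each of the 10 genes in CPM (log axes, with a panel for each gene) in monocyte/macrophage-like (M), dendritic cell-like (DC), T-like (T) and NK-like (NK) cells. Each point is 1 library, coloured by age, with a 95% counting interval; Cd14 in M lies between 313 and 400 and in T between 19.7 and 28.3, while Tlr9 lies between 4.67 and 5.16 in M and between 2.18 and 2.57 in T.

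Tlr2, the receptor for bacterial lipoproteins that pairs with Tlr1 or Tlr6, followed the same order. Its level was 90.5 CPM (87.6 to 93.4) at 4 months, 117 CPM (114 to 121) at 12 months and 105 CPM (102 to 108) at 20 months, or 1.30-fold and 1.16-fold of the 4-month level. Tlr1, the partner of Tlr2 for triacylated lipopeptides, was at 34.3 CPM (32.5 to 36.1), 37.1 CPM (35.2 to 39.0) and 41.4 CPM (39.5 to 43.3). Tlr6, the partner for diacylated lipopeptides, was at 9.62 CPM (8.71 to 10.6), 10.5 CPM (9.49 to 11.5) and 10.7 CPM (9.74 to 11.7). Tlr1 was highest at 20 months and lowest at 4 months, with overlapping intervals for 4 and 12 months, and the intervals of Tlr6 overlapped for all 3 ages. Tlr4, the lipopolysaccharide receptor that CD14 serves, was at 25.3 CPM (23.8 to 26.8), 23.8 CPM (22.3 to 25.4) and 27.5 CPM (26.0 to 29.1). Tlr4 thus did not share the order of Cd14 and Tlr2, and its 12-month library was the lowest.

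At least 1 Cd14 count was found in 57.1%, 69.1% and 66.2% of monocyte/macrophage-like cells at 4, 12 and 20 months. The shares were 11.9%, 18.9% and 13.8% of T-like cells, a class that should lack it. T-like cells had median depths of 5311, 6265 and 5905 counts. With every cell thinned to 3000 counts the shares were 37.0%, 45.7% and 43.4% for monocyte/macrophage-like cells against 5.90%, 8.36% and 6.70% for T-like cells. For Tlr2 the shares were 39.9%, 51.9% and 46.8%, against 5.23%, 7.81% and 6.45% in T-like cells, and 21.3%, 25.9% and 23.5% after thinning. The order of the ages was therefore the same before and after thinning for both genes.

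Among monocyte/macrophage-like cells, 1785, 1857 and 2280 were macrophage-like and 2153, 1140 and 1386 classical monocyte-like at 4, 12 and 20 months. The rest stayed unnamed. Of the 5 surface members, Tlr1 separated them most, at 48.3, 46.1 and 51.1 CPM in macrophage-like and 18.1, 14.9 and 18.7 CPM in classical monocyte-like cells. That is 2.67-fold (2.33 to 3.06), 3.10-fold (2.59 to 3.74) and 2.73-fold (2.35 to 3.20) higher in macrophage-like cells. Cd14 had no fixed order between them, since the monocyte-like level was 1.25-fold of the macrophage-like one at 4 months, 0.909-fold at 12 months and 1.05-fold at 20 months. Cd14 in macrophage-like cells was at 294 CPM (286 to 302), 456 CPM (447 to 466) and 375 CPM (367 to 383), and in classical monocyte-like cells at 368, 414 and 393 CPM.

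Cd14 varied more between sub-clusters of these cells than between ages. At 4 months it was highest in a small macrophage-like sub-cluster led by Mmp12 and Arg1 (768, 919 and 759 CPM over the 3 ages) and next in the monocyte-like sub-cluster led by Vcan and F13a1 (626, 686 and 674 CPM). A macrophage-like sub-cluster led by Il1b, an inflammatory cytokine gene, and Cxcl2, a neutrophil-attracting chemokine gene, had 510 CPM (490 to 530), 729 CPM (711 to 748) and 790 CPM (767 to 814), and exceeded the Vcan sub-cluster at 12 and 20 months. That sub-cluster held 10.6%, 19.1% and 11.2% of the class, most at 12 months, where Cd14 of the class was highest. At the low end were sub-clusters led by Cxcl11 and Ifit1bl1, genes of the interferon response (116, 182 and 172 CPM), by Ccl17 and the MHC class II gene H2-Ab1 (148, 169 and 204 CPM) and by Pf4 and Cd81 (168, 278 and 254 CPM). The Pf4 sub-cluster held 6.83%, 12.5% and 19.9% of the class, so its share grew with age while its Cd14 level was below that of the class at each age.

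A further sub-cluster of at most 32 cells per library is not shown. Within each of the 10 sub-clusters plotted, the Cd14 log2 ratio of 12 to 4 months was above 0, from 0.13 in the Vcan sub-cluster to 0.73 in the Pf4 sub-cluster. At 20 months it was below 0 in the Mmp12 sub-cluster alone (-0.02) and reached 1.04 in a sub-cluster led by Cxcl9 and Gpr84, where Cd14 was at 244, 371 and 501 CPM. With the sub-clusters weighted by their counts at 4 months, the log2 ratio of Cd14 was 0.35 at 12 months and 0.34 at 20 months, against 0.36 and 0.19 for the class as it stood. For Tlr1 this weighting turned the sign, from 0.11 and 0.27 to -0.15 and -0.03. Tlr1 was highest in the Pf4 sub-cluster (66.5, 58.9 and 58.9 CPM), whose share was larger at 12 and 20 months, and lowest among those named here in the Vcan sub-cluster (7.77, 8.94 and 11.4 CPM).

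**Figure D2:**
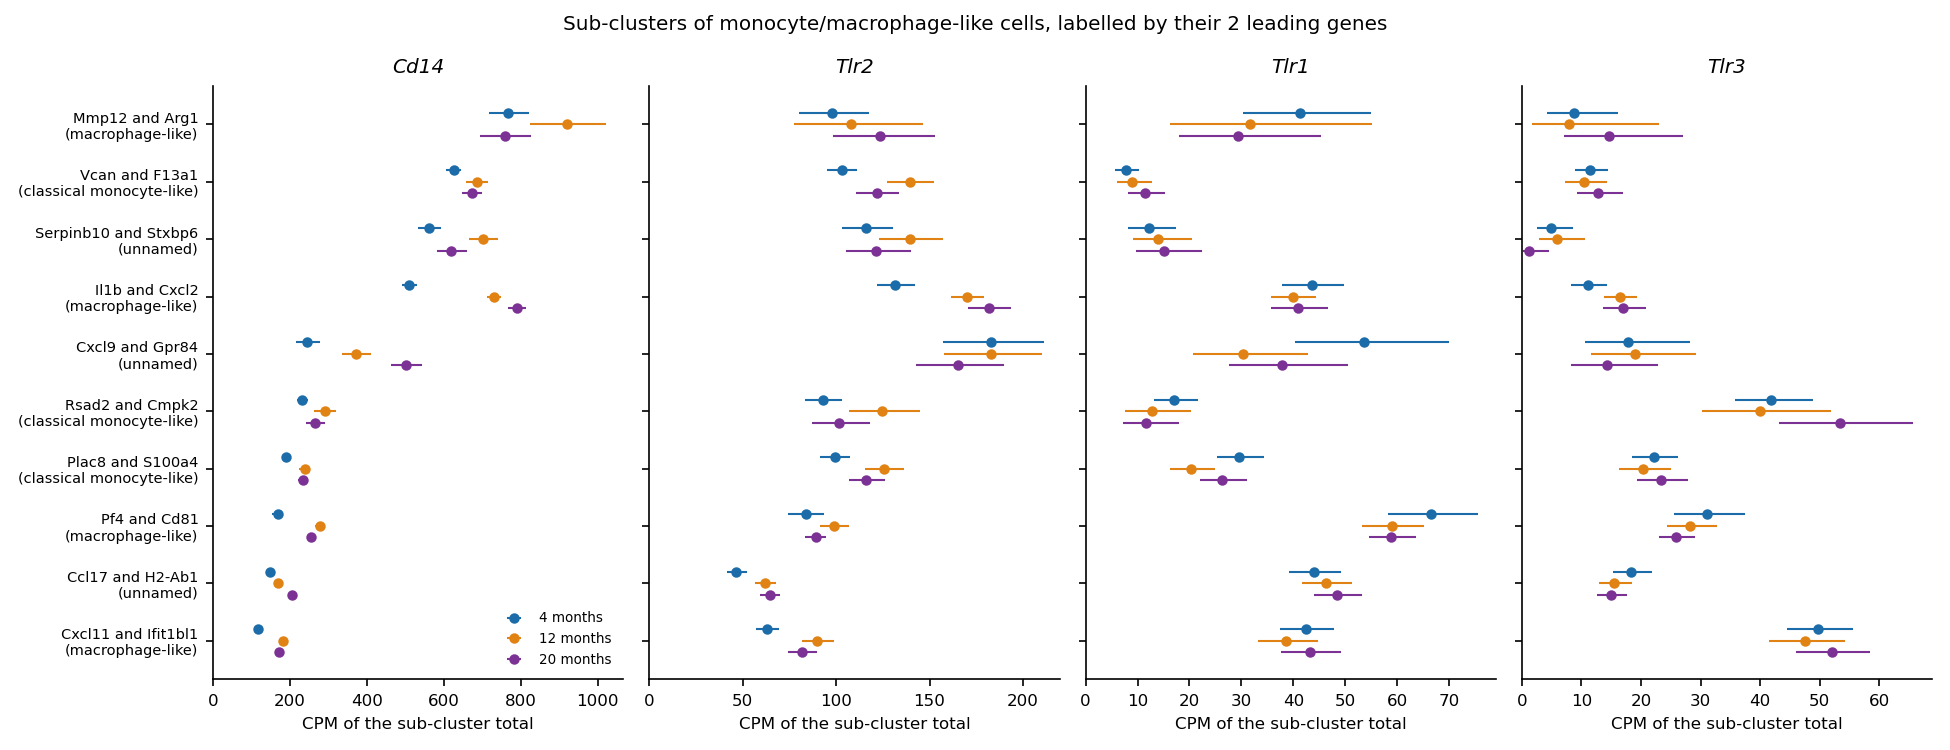
Levels of Cd14, Tlr2, Tlr1 and Tlr3 in CPM (linear axes) in 10 sub-clusters of monocyte/macrophage-like cells, each named by a pair of leading genes. Points are libraries coloured by age with 95% counting intervals; Cd14 is low in the Cxcl11 sub-cluster (116 to 182) and Tlr3 highest in the Cxcl11 and Rsad2 sub-clusters (39.9 to 53.5).

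Tlr2 showed a narrower spread over the same sub-clusters. It was at 183, 183 and 165 CPM in the Cxcl9 sub-cluster, at 132, 170 and 182 CPM in the Il1b sub-cluster and at 103, 139 and 122 CPM in the Vcan sub-cluster. In the Ccl17 sub-cluster it was at 46.6, 61.7 and 64.4 CPM. The level of Tlr2 in the Cxcl9 sub-cluster was thus the same at 4 and 12 months, while in the Il1b and Ccl17 sub-clusters the 4-month library was the lowest.

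The endosomal receptors were arranged differently over these cells. Tlr3, the receptor for double-stranded RNA that signals through TRIF, was at 24.0 CPM (22.6 to 25.6), 22.0 CPM (20.5 to 23.5) and 24.2 CPM (22.7 to 25.6) in monocyte/macrophage-like cells, with overlapping intervals. Over the sub-clusters it was highest in the pair led by interferon-response genes. These were the Cxcl11 and Ifit1bl1 sub-cluster (49.8, 47.6 and 52.0 CPM) and a monocyte-like sub-cluster led by Rsad2 and Cmpk2 (41.9, 39.9 and 53.5 CPM). In an unnamed sub-cluster led by Serpinb10 and Stxbp6 it was at 4.89, 5.90 and 1.25 CPM. The macrophage-like level was 1.35-fold, 1.39-fold and 1.21-fold of the classical monocyte-like one.

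Promoter windows from RefSeq (build GRCm38.p6) were used for 7 of the 10 genes, each covering 250 bases before to 50 bases after a transcript start. Tlr4 and Tlr7 had none, and the chromosome of Cd14 was left out of the search. The upstream stretches of Tlr3, Tlr2 and Tlr13 are shown. Tlr3 was highest in the sub-clusters led by interferon-response genes, and Tlr2 had the pattern nearest to Cd14 among the members. Tlr13 was among the members that most separated monocyte/macrophage-like from T-like cells. Bases that are exonic in GENCODE were left off. Capitals mark the interferon regulatory factor core AANNGAAA (TTTCNNTT on the other strand) or the PU box GAGGAA, which reads as TTCCTC on the opposite strand. A narrow form of the NF-kB motif was searched too, and all 3 on both strands.

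Tlr3: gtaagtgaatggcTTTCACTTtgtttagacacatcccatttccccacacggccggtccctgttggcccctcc

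Tlr2: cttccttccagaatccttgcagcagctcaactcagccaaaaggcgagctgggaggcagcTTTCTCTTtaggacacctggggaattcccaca

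Tlr13: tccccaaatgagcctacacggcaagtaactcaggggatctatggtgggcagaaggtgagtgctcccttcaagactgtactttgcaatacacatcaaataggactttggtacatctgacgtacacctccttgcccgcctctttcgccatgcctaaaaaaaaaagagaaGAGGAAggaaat

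The Tlr3 stretch is chr8:45410381-45410452 on the minus strand, 72 bases that precede 1 transcript start and lie in an intron of longer transcripts. The Tlr2 stretch is chr3:83841768-83841858 on the minus strand (91 bases) and the Tlr13 stretch is chrX:106143025-106143203 on the plus strand (179 bases). The core AANNGAAA occurs in 23.9% of the 32851 promoter windows of the same 300-base length, and GAGGAA in 28.3%, so a match in a window is common. The form of the NF-kB motif searched occurs in 1.63% of windows and, among the members searched, in the Tlr3 window, outside the stretch printed. Other forms of this motif were not searched. Whether the Tlr2 stretch or the other windows hold such a form was therefore not tested. Tlr6, whose stretch is not printed, has a window with 4 matches to AANNGAAA. A match describes the letters only and says nothing of whether a factor binds.

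Tlr7, a receptor for single-stranded RNA, was at 53.2 CPM (51.1 to 55.5), 46.6 CPM (44.5 to 48.8) and 51.5 CPM (49.5 to 53.6) in monocyte/macrophage-like cells. Tlr13, a mouse receptor for bacterial ribosomal RNA, was at 43.1 CPM (41.2 to 45.2), 35.8 CPM (34.0 to 37.7) and 39.3 CPM (37.5 to 41.1). Both were lowest at 12 months, the age at which Cd14 and Tlr2 were highest. Classical monocyte-like cells had more of both than macrophage-like cells, 1.28-fold, 1.29-fold and 1.13-fold for Tlr7 and 1.33-fold, 1.32-fold and 1.18-fold for Tlr13. Tlr7 was also high in the Serpinb10 sub-cluster, at 72.6, 76.1 and 77.6 CPM.

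Tlr8, which senses RNA breakdown products, gave 188, 173 and 187 counts in monocyte/macrophage-like cells, or 4.42 CPM (3.81 to 5.10), 4.32 CPM (3.70 to 5.02) and 4.12 CPM (3.55 to 4.76). It was a gene of the monocyte side of the class. Classical monocyte-like cells had 7.57, 7.60 and 6.13 CPM and macrophage-like cells 1.78, 3.18 and 3.22 CPM, a ratio of 4.25-fold (2.81 to 6.61), 2.39-fold (1.68 to 3.41) and 1.90-fold (1.34 to 2.69). The order was the same in every library. Tlr8 was at 8.97, 9.12 and 10.6 CPM in the Serpinb10 sub-cluster and at 1.20, 2.01 and 1.48 CPM in the Il1b sub-cluster. Tlr9, the receptor for unmethylated CpG DNA, gave 200, 187 and 234 counts, or 4.70 CPM (4.07 to 5.40), 4.67 CPM (4.03 to 5.39) and 5.16 CPM (4.52 to 5.86), with overlapping intervals.

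For the comparison of ages, a gene was counted as higher or lower where its ratio passed 1.5-fold, given at least 30 counts over both libraries. In monocyte/macrophage-like cells none of the 10 genes was higher or lower at 12 than at 4 months by this rule. Of all genes tested, 11.7% were higher and 5.34% lower. None passed at 20 months either, where 9.85% of all genes were higher and 6.11% lower. Between 12 and 20 months the count was again 0, beside 5.08% higher and 6.54% lower of all genes. The median log2 ratio of the 10 genes was -0.02 at 12 months and 0.13 at 20 months, against 0.06 and 0.05 over all genes tested.

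At 12 months the surface members other than Tlr4 lay above 0 and the endosomal members below. Cd14 (0.36), Tlr2 (0.38), Tlr1 (0.11) and Tlr6 (0.12) had log2 ratios above 0, and Tlr4 was at -0.09. Of the endosomal members, Tlr13 was at -0.27 (-0.37 to -0.17), Tlr7 at -0.19, Tlr3 at -0.13, Tlr8 at -0.03 and Tlr9 at -0.01. At 20 months Cd14 (0.19), Tlr2 (0.21), Tlr1 (0.27), Tlr6 (0.15), Tlr4 (0.12) and Tlr9 (0.13) were above 0, Tlr3 stood at 0.01, and Tlr7 (-0.05), Tlr8 (-0.10) and Tlr13 (-0.14) were below 0. Cd14 and Tlr2 were above 0 and Tlr13 below 0 at both ages under all 12 alternatives of processing, whereas Tlr1, Tlr3, Tlr7, Tlr8 and Tlr9 changed sign at 12 or 20 months under at least 1 of them. With cells of more than 5% mitochondrial counts left out, the Cd14 log2 ratio at 12 months was 0.60, past 1.5-fold.

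**Figure D3:**
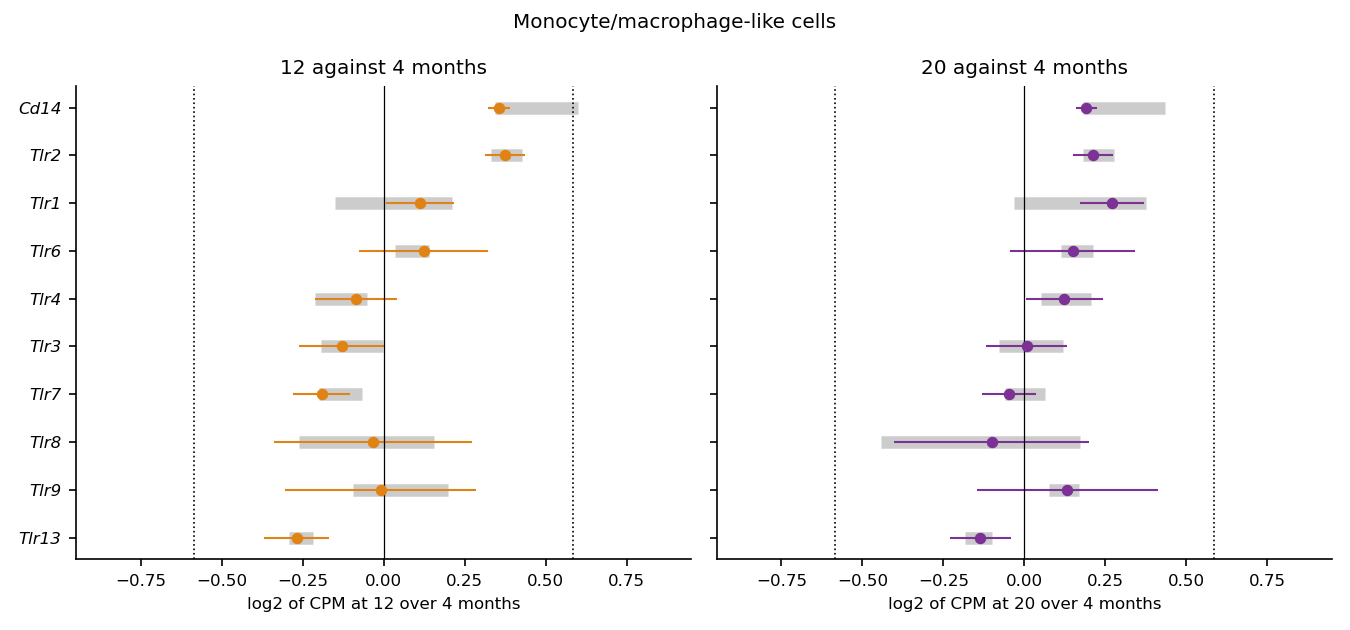
Log2 ratio of the level at 12 months (left) and 20 months (right) to that at 4 months in monocyte/macrophage-like cells for the 10 genes. Points are ratios with 95% counting intervals, grey bars the range over alternatives of processing and dotted lines 1.5-fold; every point lies inside the dotted lines, with Tlr2 at 0.38 and Tlr13 at -0.27 the outermost at 12 months.

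Other marker sums moved in the same class and are given as measured. The summed level of the macrophage list in monocyte/macrophage-like cells was 5759, 8204 and 10612 CPM at 4, 12 and 20 months, and that of the classical monocyte list 12615, 9770 and 9082 CPM. The 8 neutrophil markers summed to 81.9, 117 and 105 CPM, with 7, 8 and 8 of them above 3 counts and Ngp at 0 at 4 months. The T cell list summed to 580, 932 and 778 CPM in these same cells. The 10 markers of melanoma cells, fibroblasts and endothelial cells summed to 34.4, 34.3 and 35.1 CPM, with 7, 8 and 9 above 3 counts. The part of these lists in the levels of Cd14 and Tlr2 was not tested.

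Macrophage-like cells taken alone gave calls that the wider class did not. Cd14 was 1.55-fold of its 4-month level at 12 months, a log2 ratio of 0.63 (0.58 to 0.69), and Tlr8 was 1.78-fold (1.13 to 2.87) on 29 and 64 counts, so that 2 of 10 genes were higher beside 10.7% of all genes, and 0 were lower beside 4.38%. At 20 months Tlr8 was 1.81-fold (1.16 to 2.88) on 74 counts, 1 of 10 beside 10.1% of all genes higher, and none was lower beside 5.07%. The Cd14 value depended on where the class was cut. Without cells above 5% mitochondrial counts its log2 ratio at 12 months was 0.01, and at 20 months the alternatives ran from -0.20 to 0.59. In classical monocyte-like cells none of the 10 passed at 12 months (10.8% of all genes higher, 4.94% lower) or at 20 months (9.42% and 5.17%). Tlr2 there was at 99.1, 131 and 116 CPM, in the same order of ages as in macrophage-like cells (90.8, 127 and 111 CPM).

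Dendritic cell-like cells numbered 760, 676 and 754 at 4, 12 and 20 months and carried less of the surface receptors. Cd14 was at 48.2, 68.6 and 51.2 CPM in them, Tlr2 at 23.3, 30.8 and 29.6 CPM and Tlr4 at 6.06, 6.39 and 7.84 CPM. The monocyte/macrophage-like level was 6.49-fold, 5.84-fold and 6.97-fold higher for Cd14, 3.88-fold, 3.81-fold and 3.54-fold for Tlr2 and 4.17-fold, 3.72-fold and 3.51-fold for Tlr4. The gap was thus largest for Cd14 among these 3 genes in each library.

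Tlr3 set the type 1 dendritic cell-like cells apart, the subset known for taking up dead cells and presenting their antigens to CD8 T cells. With 89, 95 and 160 cells, it had 124, 190 and 296 Tlr3 counts, or 134 CPM (112 to 160), 168 CPM (145 to 194) and 190 CPM (169 to 213). The level was 5.58-fold (4.59 to 6.73), 7.65-fold (6.51 to 8.96) and 7.88-fold (6.91 to 8.97) that of monocyte/macrophage-like cells. At least 1 Tlr3 count was found in 65.2%, 72.6% and 80.0% of the cells, and in 2.49%, 2.96% and 3.17% of T-like cells. Thinned to 3000 counts, the shares in the type 1 cells were 37.1%, 35.8% and 42.5%. Type 2 dendritic cell-like cells, which mainly prime CD4 T cells, had 23.7, 25.9 and 23.6 CPM of Tlr3, so that the type 1 level was 5.65-fold, 6.48-fold and 8.05-fold higher.

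In the dendritic cell-like class as a whole Tlr3 was at 34.4 CPM (30.1 to 39.2), 42.3 CPM (37.6 to 47.4) and 58.4 CPM (52.8 to 64.5). It was higher at 20 than at 4 months, by 1.70-fold (1.44 to 2.01), with a log2 ratio of 0.74 to 0.89 under 10 alternatives. Tlr9 was also past the rule on 15 and 31 counts, at 2.27 and 4.59 CPM, or 2.02-fold (1.06 to 4.02). These were 2 of 9 genes tested, beside 8.76% of all genes higher, and 0 were lower beside 5.22%. At 12 months none of 9 passed, beside 9.01% higher and 4.11% lower. The type 1 cells made up 89 of 760 dendritic cell-like cells at 4 months and 160 of 754 at 20 months, and within them Tlr3 was 1.42-fold (1.15 to 1.77) at 20 months, short of 1.5-fold. The ratio of the class therefore mixes the share of type 1 cells with the level within them.

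Within the type 1 cells 3 genes could be tested at 12 months and 4 at 20 months. Tlr13 was lower at 12 months on 21 and 15 counts, at 22.7 and 13.3 CPM, with an interval of the ratio from 0.280 to 1.19 that includes 1, beside 6.16% of all genes lower and 8.47% higher. At 20 months none of the 4 passed, beside 9.99% higher and 5.67% lower. Cd14 in the type 1 cells (22.7, 31.0 and 30.9 CPM) was 1.15-fold, 1.09-fold and 1.39-fold of its level in T-like cells and so was near the background.

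Type 2 cells were the dendritic subset with Cd14 and Tlr2. Cd14 was at 63.5 CPM (56.2 to 71.5), 101 CPM (90.7 to 111) and 67.2 CPM (59.5 to 75.7), or 3.23-fold, 3.55-fold and 3.02-fold of its level in T-like cells. Tlr2 was at 30.2 CPM (25.3 to 35.9), 46.6 CPM (40.0 to 54.0) and 39.9 CPM. Both were higher at 12 than at 4 months, by 1.58-fold and 1.54-fold, 2 of 8 genes tested beside 8.45% of all genes. Tlr7 was lower, at 22.6 and 11.9 CPM or 0.528-fold (0.362 to 0.759), 1 of 8 beside 4.55%. Its level at 4, 12 and 20 months was 1.49-fold, 1.09-fold and 1.43-fold of that in T-like cells. The interval at 12 months (0.788 to 1.48) includes 1. At 20 months Tlr9 alone was higher, on 10 and 20 counts and with an interval from 0.946 to 5.06, 1 of 9 beside 8.95%, and none was lower beside 5.86%. A type 2 sub-cluster led by Cd209a and Ccl9, of 142, 87 and 60 cells, had Cd14 at 125 CPM (105 to 147), 226 CPM (194 to 261) and 212 CPM (174 to 257). Its 10 leading genes also hold F13a1, Fn1 and Lyz2, genes of monocytes, and their part in its Cd14 level was not tested. In the type 2 sub-cluster led by Dnah9 and Cxcl11, Cd14 was at 50.3, 83.5 and 58.3 CPM, and in that led by Plet1 and Ffar2 at 29.4, 49.1 and 42.0 CPM, and in each of these 3 sub-clusters the 12-month library was the highest.

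Plasmacytoid dendritic cell-like cells, known as a main source of type I interferon, numbered 61, 57 and 52. Tlr7 gave 90, 92 and 74 counts in them, or 269 CPM (217 to 331), 248 CPM (200 to 304) and 254 CPM (199 to 318), and was found in 72.1%, 70.2% and 67.3% of the cells. T-like cells, of similar median depth (5311, 6265 and 5905 counts against 5089, 5779 and 5182), had a Tlr7 count in 8.65%, 7.78% and 7.24%. Thinned to 3000 counts, the shares were 60.7%, 42.1% and 42.3% of the plasmacytoid and 4.67%, 3.23% and 3.45% of the T-like cells. The Tlr7 level in CPM was 5.06-fold, 5.31-fold and 4.92-fold of the monocyte/macrophage-like level, with overlapping intervals between ages. Tlr9, the other receptor for which these cells are known, gave 1, 4 and 1 counts. Tlr4 and Tlr6 had 0 counts in all 3 libraries, which allows up to 8.98, 8.07 and 10.3 CPM (3 counts of the total), so their level is not resolved at this depth.

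Mature dendritic cell-like cells, the stage that migrates to lymph nodes, numbered 137, 169 and 102 and had little of any member. Tlr3 gave 1, 3 and 2 counts there. Cd14 was at 16.4, 26.2 and 18.9 CPM, or 0.831-fold, 0.926-fold and 0.848-fold of its level in T-like cells. It was higher at 12 months by the rule, 1 of 2 genes tested beside 10.1% of all genes (5.54% lower), although its level did not exceed that of T-like cells. Tlr13 was at 20.2, 16.2 and 15.3 CPM, which is 5.60-fold, 4.55-fold and 4.31-fold of its T-like level.

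**Figure D4:**
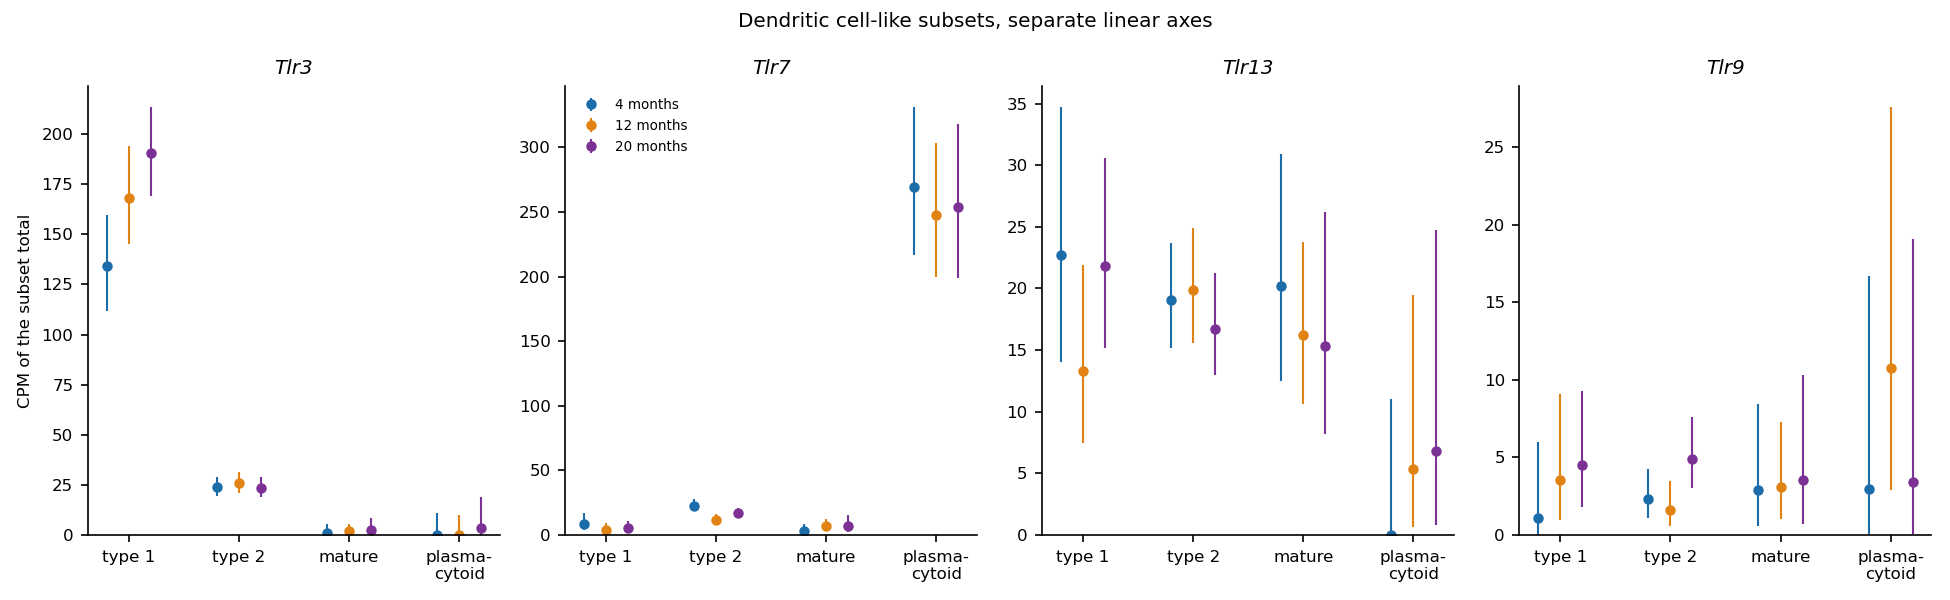
Levels of Tlr3, Tlr7, Tlr13 and Tlr9 in CPM (separate linear axes from 0) in the dendritic subsets. Points are libraries coloured by age with 95% counting intervals; Tlr3 is high in type 1 cells (134 to 190), Tlr7 in plasmacytoid cells (248 to 269), and Tlr9 rests on few counts in every subset.

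T-like cells had low levels of all 10 genes. In monocyte/macrophage-like cells 9 of the 10 were at least 2-fold higher than in T-like cells in all 3 libraries, where 10.9% of all genes met the same rule. The ratios at 4, 12 and 20 months were 15.9, 14.1 and 16.1 for Cd14, 12.0, 10.0 and 11.0 for Tlr13, 10.6, 10.8 and 10.6 for Tlr2 and 7.31, 8.36 and 7.84 for Tlr4. For Tlr8 they were 8.80, 12.7 and 7.90, for Tlr3 5.94, 5.20 and 4.97, for Tlr6 4.38, 4.54 and 4.41, for Tlr1 3.67, 4.52 and 4.61 and for Tlr7 3.50, 4.28 and 4.39. Tlr9 was the exception, with 1.83, 2.14 and 2.05.

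RNA of burst cells gives counts of macrophage genes in other droplets, so levels in lymphocytes were read against genes that lymphocytes lack. Lyz2, Csf1r, Fcgr1, C1qa and Apoe of macrophages stood in T-like cells at 6.59% to 9.36% of their monocyte/macrophage-like level. Cd14 (6.29%, 7.07% and 6.23%), Tlr13 (8.37%, 9.96% and 9.05%) and Tlr2 (9.40%, 9.29% and 9.45%) were in or near that range, so no T cell expression can be read from them. Tlr4 (13.7%, 12.0% and 12.8%), Tlr3 (16.8%, 19.2% and 20.1%), Tlr6 (22.8%, 22.0% and 22.7%), Tlr1 (27.3%, 22.1% and 21.7%), Tlr7 (28.5%, 23.4% and 22.8%) and Tlr9 (54.7%, 46.7% and 48.7%) lay above it. Tlr8 (11.4%, 7.88% and 12.7%) fell on both sides. Cd14 in T-like cells was at 19.7 CPM (18.2 to 21.3), 28.3 CPM (26.9 to 29.8) and 22.2 CPM (20.8 to 23.7), with the same order of ages as in monocyte/macrophage-like cells, and NK-like cells had 19.7, 28.5 and 23.9 CPM.

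Regulatory T-like cells, which restrain other T cells, differed from CD8 T-like cells in Tlr1. They numbered 680, 543 and 417, and Tlr1 was at 33.5 CPM (27.8 to 39.9), 25.8 CPM (20.9 to 31.5) and 22.9 CPM (17.5 to 29.4) in them. In CD8 T-like cells, of which there were 1053, 1929 and 2131, it was at 3.29, 5.47 and 6.05 CPM. The ratio was 10.2 (6.37 to 17.0), 4.71 (3.45 to 6.46) and 3.78 (2.68 to 5.31). Against all T-like cells, which include the regulatory ones, it was 3.58, 3.15 and 2.55. The regulatory level reached 97.6%, 69.6% and 55.3% of the monocyte/macrophage-like one, while in CD8 T-like cells it was 9.59%, 14.8% and 14.6%. Tlr7 showed the same order, at 29.3, 17.9 and 16.5 CPM in regulatory and 11.9, 7.92 and 5.98 CPM in CD8 T-like cells, a ratio of 2.47, 2.26 and 2.76. In both subsets the 4-month library had the highest Tlr7, and the 20-month level was 0.562-fold (0.387 to 0.806) in regulatory and 0.502-fold (0.364 to 0.694) in CD8 T-like cells. Most T-like cells (3133, 3971 and 3452) stayed unnamed and are outside this contrast. Their largest sub-cluster, led by Gzmm and Dapl1, had Tlr7 at 18.0 CPM (13.3 to 23.8), 16.2 CPM (13.4 to 19.3) and 20.7 CPM (18.3 to 23.4), without the lower level at 20 months, and Tlr1 at 9.55, 9.08 and 10.5 CPM. A sub-cluster led by Klra7 and Klra6 had Tlr7 at 20.0, 14.9 and 14.8 CPM, so high Tlr7 was not particular to regulatory T-like cells. Tlr1 above the CD8 T-like level was not particular to them either. It was at 12.7, 14.4 and 14.4 CPM in a sub-cluster led by Ifitm1 and Gzma. In gamma-delta T-like cells it was at 17.3, 12.6 and 8.8 CPM, on 10, 7 and 5 counts.

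**Figure D5:**
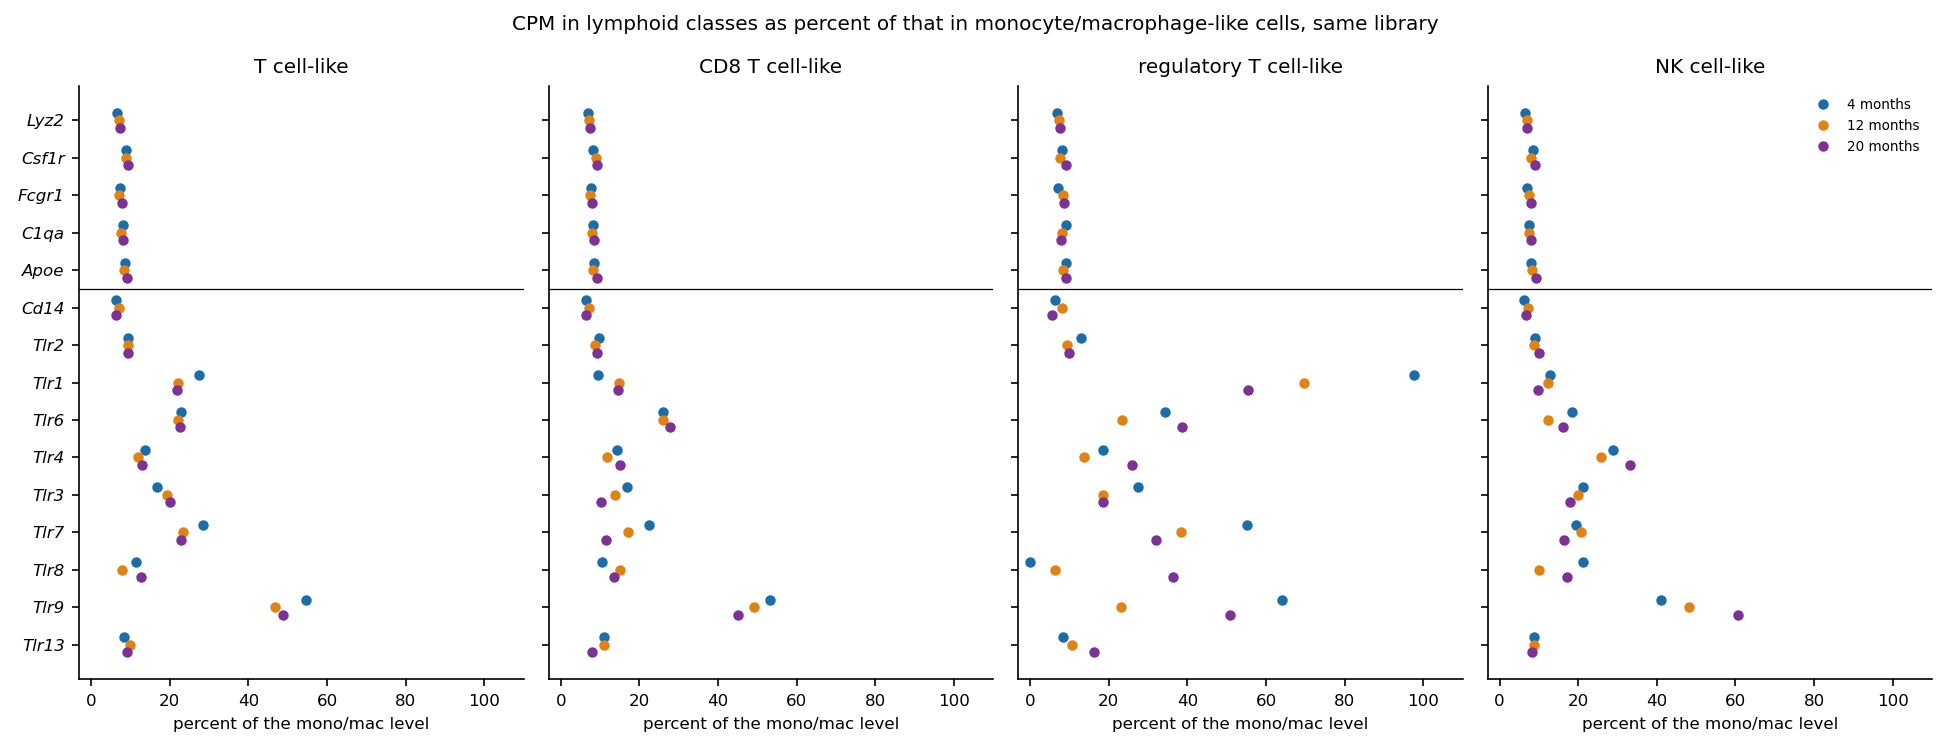
Level in T-like, CD8 T-like, regulatory T-like and NK-like cells as a percent of the monocyte/macrophage-like level in the same library, for 5 macrophage genes (top rows) and the 10 genes. Points are libraries coloured by age; the macrophage genes stay at 6.59% to 9.36% in T-like cells, whereas Tlr1 reaches 55.3% to 97.6% in regulatory T-like cells.

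NK-like cells, with 2309, 2089 and 1613 cells, stood out for Tlr4. Its level was 7.30 CPM (6.14 to 8.62), 6.17 CPM and 9.14 CPM (7.56 to 11.0), or 2.11-fold, 2.17-fold and 2.61-fold of that in T-like cells and 28.9%, 25.9% and 33.2% of the monocyte/macrophage-like level. A single NK-like cell at 20 months held 23 of the counts, and without it the 20-month level was 7.35 CPM. Tlr1 in NK-like cells was 0.468-fold, 0.550-fold and 0.452-fold of its T-like level. None of the 10 genes passed 1.5-fold between 4 months and the other ages in T-like cells, beside 10% of all genes higher and 5.6% lower at 12 months and 9.93% and 5.98% at 20 months. In NK-like cells Tlr9 was higher at 20 months, at 1.93 and 3.12 CPM on 37 and 40 counts or 1.62-fold (1.01 to 2.60), 1 of 9 genes tested beside 7.73% of all genes (5.13% lower), and none passed at 12 months (9.5% higher and 4.91% lower). B-like cells were too few to describe Tlr9, with 25, 26 and 22 cells and 0, 0 and 1 counts.

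The genes most alike in pattern were sought by Pearson correlation of log2(CPM + 10) over 48 class sums, which were 16 classes or sub-classes in each of the 3 libraries. The 8738 genes compared had a mean of at least 10 CPM over these sums. Only classes with at least 100 cells in each library entered. Type 1 dendritic cell-like, plasmacytoid dendritic cell-like and gamma-delta T-like cells were thus left out. The values for Tlr3 and Tlr7 therefore do not cover the dendritic subsets in which these genes were high. The sums of an age share a library, and r is given as a description. Cd14 was most like Csf3r (0.981), the G-CSF receptor gene, and then Tlr2 (0.976). Tlr2 was most like Cd14, Igsf6 (0.975) and Csf1r (0.971), the receptor gene of the macrophage growth factor. Tlr13 was most like Psap (0.976) and Mpeg1 (0.972), and Tlr6 like Tgfbi (0.951). Lower values were found for Tlr3 with Tor3a (0.906), Tlr7 with Tom1 (0.933), Tlr1 with Dnase2a (0.901) and Tlr9 with Mmp14 (0.774). The means of Tlr9 (3.14 CPM), Tlr6 (4.63 CPM) and Tlr3 (9.67 CPM) lay below the 10 CPM added before the log. How far this changed their r was not tested.

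Genes acting before and after the receptors were compared in monocyte/macrophage-like cells by the same rule. Of all genes tested there, 11.7% were higher and 5.34% lower at 12 months, and 9.85% and 6.11% at 20 months. Of 8 co-receptor and chaperone genes, Lbp, which encodes the lipopolysaccharide-binding protein of plasma, was lower at both ages (1.55, 0.675 and 0.595 CPM) and none was higher. Lbp rested on 66, 27 and 27 counts. In T-like cells it was at 0.628, 0.240 and 0.237 CPM, also lower at both ages, and the part of this in the Lbp call was not tested. None of the 15 adaptor and kinase genes passed at either age, with median log2 ratios of -0.07 and -0.05, and none of the 8 transcription factor genes, with medians of -0.07 and -0.18. Of 10 negative regulators, Dusp1, a phosphatase gene that ends MAP kinase signals, fell by 0.70 on the log2 scale at 20 months (616, 694 and 380 CPM).

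Of the 15 genes induced through these receptors, 14 could be tested. Of the 14, 2 were higher and 2 lower at 12 months, beside 11.7% and 5.34% of all genes. At 20 months 2 were higher and 1 lower, beside 9.85% and 6.11%. At 12 months Il12b, a cytokine subunit gene (8.39 and 15.7 CPM), and Cxcl1, a chemokine gene (12 and 53 counts), were higher, and Il6 and Acod1, the itaconate enzyme gene (89.5 and 58.7 CPM), were lower. Il12b in T-like cells was at 5.15, 8.54 and 4.55 CPM, in the same order of ages, and the mature dendritic marker list summed to 49.3, 75.9 and 49.5 CPM in monocyte/macrophage-like cells. The part of both in the Il12b level was not tested. At 20 months Cxcl1 (87 counts) and Nos2, the inducible nitric oxide synthase gene (1.01 and 1.87 CPM), were higher and Il6 was lower, its levels being 12.1, 6.62 and 5.75 CPM. The list's median was 0.03 at 12 months and 0.01 at 20 months, so the list had no common direction. Of 12 early response genes, which are switched on soon after many stimuli, Fosb was higher at 12 months (61.0 and 93.8 CPM) and Jun lower at 20 months (544, 544 and 362 CPM). At 20 months 11 of the 12 were below 0, with a median of -0.38, and their summed level was 4850, 5243 and 3483 CPM. Its part in the levels of Dusp1 and the induced genes was not tested.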

How the data were processed

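The authors deposited raw counts per gene and cell, 1 matrix per age, for 55401 genes. STAR 2.7.10a and build GRCm38 are named in the submitters' processing notes. How cells were called, and whether molecules or reads were counted, is not given in the sources used here. No replicate of an age exists, so p-values were not computed.

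Cells were kept from 500 counts upward if mitochondrial genes took no more than 15%. The 6% of cells with the highest Scrublet scores were removed per library, because Scrublet's own threshold marked 196, 190 and 123 cells. Cells with at least 5% hemoglobin counts (5, 2 and 1) were dropped. All libraries were clustered together with scanpy 1.11.5 (2000 variable genes, 30 components, 15 neighbours, Leiden resolution 1.0, seed 0; Python 3.11.15, scipy 1.17.1, igraph 0.11.9). The members, the pathway genes and 8 library-specific genes (Hbb-bs, Ppfia2, Vwc2l, Cbfa2t2, Gm29683, Gm47854, Ak7 and Hsd17b11) did not enter the clustering. Clusters took the class with the highest mean marker score, if it was at least 0.4, led the next by 0.1 and rested on at least 3 markers. A cluster remained unnamed where other classes' markers outnumbered its own among the 10 leading genes. Levels are class counts scaled to 1000000 (CPM). Ratios carry exact conditional binomial intervals, and shares of cells carry exact binomial ones. The named genes are all members, Tlr5, Tlr11, Tlr12 and listed pathway genes past 1.5-fold. The members and lists were chosen with earlier results of these data known. In simulated data the 1.5-fold rule recovered 98% of 200 changed genes among 17752 and called 1.27% of the others, for monocyte/macrophage-like cells at 20 against 4 months. These percentages are not split by size of change. Recovery of genes close to 1.5-fold was not tested, and the 98% does not cover it. In the measured counts of that comparison 9.85% of all genes were higher and 6.11% lower. How often a difference between libraries alone passes the rule was not tested. The genes most alike in pattern to Tlr4 are not reported here.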

Additional observations from a re-analysis of the deposited data

How the results depend on the processing

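No paired analysis was possible because each age has 1 library and replicate numbers only name samples. Of 67 recomputed counts of members past a threshold, 66 stayed within 1.5 times the main count. The exception was the count higher at 12 than at 4 months in monocyte/macrophage-like cells, which was 1 with a mitochondrial share of at most 5% and 0 otherwise. Of 809 recomputed single ratios, 723 stayed within their counting interval, 86 moved and 0 of the called ones changed sign. The Cd14 log2 ratio at 12 months in monocyte/macrophage-like cells ran from 0.34 to 0.60, with 0.58 when library-specific genes were kept in the clustering. In macrophage-like cells it ran from 0.01 to 0.76. The cause was not tested. Keeping library-specific genes, weighting sub-clusters by their 4-month counts and leaving out single highest cells were chosen after seeing the data. Scaling by highly expressed genes shifted no class by more than 0.050 on the log2 scale. Ratios on fewer than about 100 counts, such as those of Tlr8 and Tlr9, are limited by depth.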

Other observations

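Of the Toll-like receptors outside the set, Tlr12 and Tlr11, which sense profilin of protozoa and act together, had higher levels in certain dendritic subsets than in monocyte/macrophage-like cells, although those more numerous cells gave 505, 622 and 737 counts of Tlr12 and 64, 59 and 62 of Tlr11. Tlr12 was at 71.8, 80.7 and 92.5 CPM in plasmacytoid dendritic cell-like cells at 4, 12 and 20 months, on 24, 30 and 27 counts, which was 6.05-fold, 5.19-fold and 5.70-fold of the monocyte/macrophage-like level. Within monocyte/macrophage-like cells (11.9, 15.5 and 16.2 CPM) the macrophage-like level of Tlr12 was 10.4-fold, 7.84-fold and 9.13-fold of the classical monocyte-like one. Tlr11 in type 1 dendritic cell-like cells was at 22.7, 27.4 and 48.2 CPM, or 15.1-fold, 18.6-fold and 35.3-fold of the monocyte/macrophage-like level. In the type 1 cells the 20-month level was 2.12-fold (1.30 to 3.63) of the 4-month one for Tlr11 and 1.82-fold (1.02 to 3.43) for Tlr12, the same direction as Tlr3 there.

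Tlr5, the flagellin receptor, was at 4.21, 2.32 and 3.11 CPM in monocyte/macrophage-like cells, with a 12-month level of 0.552-fold. Its classical monocyte-like level was 3.05-fold, 2.92-fold and 3.70-fold of the macrophage-like one, an order it shares with Tlr8.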
